A study of Mus musculus with 9 samples.

Results

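The genes of the mitochondrial ribosomal proteins were described across mouse T helper cells of 3 groups. The members were all gene symbols that start with Mrpl or Mrps, apart from those that hold -ps, which marks pseudogenes. They numbered 78 of the 22017 symbols measured. Of the 78, 51 encode proteins of the large subunit and 26 encode proteins of the small subunit. Mrps30 and Mrps18a belong to the large subunit in spite of their symbols. Mrps36 carries the family's name but is now known as a subunit of the alpha-ketoglutarate dehydrogenase complex, and it was kept because the symbol rule includes it.

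The mitochondrial ribosome translates the few proteins encoded by mitochondrial DNA, which are core subunits of the respiratory chain and of ATP synthase. Its ribosomal RNAs come from mitochondrial DNA, whereas all of its proteins are made from nuclear genes, translated in the cytosol and imported. Part of the proteins descend from bacterial ribosomal proteins and the rest were added in mitochondria. T cells are known to enlarge their mitochondria and raise mitochondrial translation after activation.

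RNA sequencing covered 9 libraries, 3 in each group, of wild-type (WT) T cells taken from spleens of C57BL/6 mice. All cells were activated through CD3 and CD28 for 3 days, received IL-2 at 100 U/mL from day 5, were stimulated a further time on day 7 (each antibody at 0.05 ug/mL), and gave RNA on day 10. The Th17-1 group spent the time before day 7 in the Th17 condition, which held TGF-b at 1 ng/mL, IL-6 at 20 ng/mL, IL-1b at 10 ng/mL and antibodies against IFN-g, IL-12 and IL-4. It then passed to the Th1 condition, which held IL-12 at 10 ng/mL and an antibody against IL-4. The Th1-1 group was kept in the Th1 condition and the Th17-17 group in the Th17 condition throughout. Cytokines and antibodies present at harvest therefore cannot be told apart from the fate of the cells. The sources used here do not give sex, age or number of mice. Nothing says that replicates came from separate animals or cultures, so the p-values speak only of the spread between libraries, which may be technical.

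Values were in FPKM, fragments scaled to the length of the transcript and to the size of the library. Comparing levels between genes rests on transcript lengths that the sources used here do not state. The read depth behind them is unknown. The 9 libraries summed to between 382581 and 405985 FPKM, had 13374 to 14063 genes above 0, and correlated at 0.964 to 0.993 within groups over the genes tested. Ifng, the interferon-gamma gene and a check of the labels, was at 717 to 990 FPKM in Th17-1, 1005 to 2013 FPKM in Th1-1 and 14.2 to 40.7 FPKM in Th17-17. Il17f, a Th17 cytokine gene, was at 0.0801 to 0.408 FPKM in Th17-1, 0 to 0.0386 FPKM in Th1-1 and 7.58 to 8.77 FPKM in Th17-17. The 5 T cell markers summed to 594 to 788 FPKM in any library. The 5 B cell markers summed to 1.17 to 2.40 FPKM in Th17-1, 0.844 to 2.08 FPKM in Th1-1 and 2.95 to 4.01 FPKM in Th17-17. Among them Cd79b, a chain of the B cell receptor complex, was lower in Th17-1 (limma adjusted p 0.0144) and in Th1-1 (0.00804) than in Th17-17. The 8 myeloid and dendritic markers summed to 0.795 to 1.87 FPKM in Th17-1, 0.920 to 3.14 FPKM in Th1-1 and 0.566 to 0.655 FPKM in Th17-17, and the 5 erythroid markers to at most 0.615 FPKM in any library. The 2 NK cell markers summed to 0.117 to 0.496 FPKM in Th17-1, 0.337 to 1.40 FPKM in Th1-1 and 3.11 to 7.19 FPKM in Th17-17. The part of these other cell types in the member differences was not tested. Cd8a, which encodes a chain of the CD8 co-receptor, stood at 104 to 141 FPKM in replicate 3 of every group, against 15.3 to 54.9 FPKM in replicates 1 and 2.

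All 78 members passed the filter on low values, which asked for at least 1 FPKM in at least 3 libraries and left 10538 genes in all. Their mean level over the 9 libraries ran from 3.45 FPKM for Mrpl47 to 76.9 FPKM for Mrpl33, with a median of 17.9 FPKM against 13.0 FPKM for all genes tested. The middle of this range, between the quartiles, was 10.8 to 26.5 FPKM, and 75 members averaged at least 5 FPKM. Mrpl33, a counterpart of a bacterial large subunit protein, was followed by Mrpl18 (55.6 FPKM), Mrpl30 (48.7 FPKM), Mrpl52 (47.9 FPKM) and Mrpl4 (44.7 FPKM). The lowest after Mrpl47 were Mrps25 (4.08 FPKM), Mrps35 (4.59 FPKM), Mrpl17 (5.41 FPKM) and Mrpl1 (5.5 FPKM). Although they meet in the assembled particle in fixed numbers, their FPKM thus spanned a 22.3-fold range. This range depends on the transcript lengths used, which are unknown. The 5 lowest members had 4295 to 8631 summed exon bases in GENCODE, where all members ran from 607 to 8631 and Mrpl33 had 7326. Mrps25 shares 69.8% of its exon bases with Nr2c2 on the opposite strand. Large subunit means had a median of 18.4 FPKM and small subunit means a median of 15.8 FPKM.

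**Figure D1:**
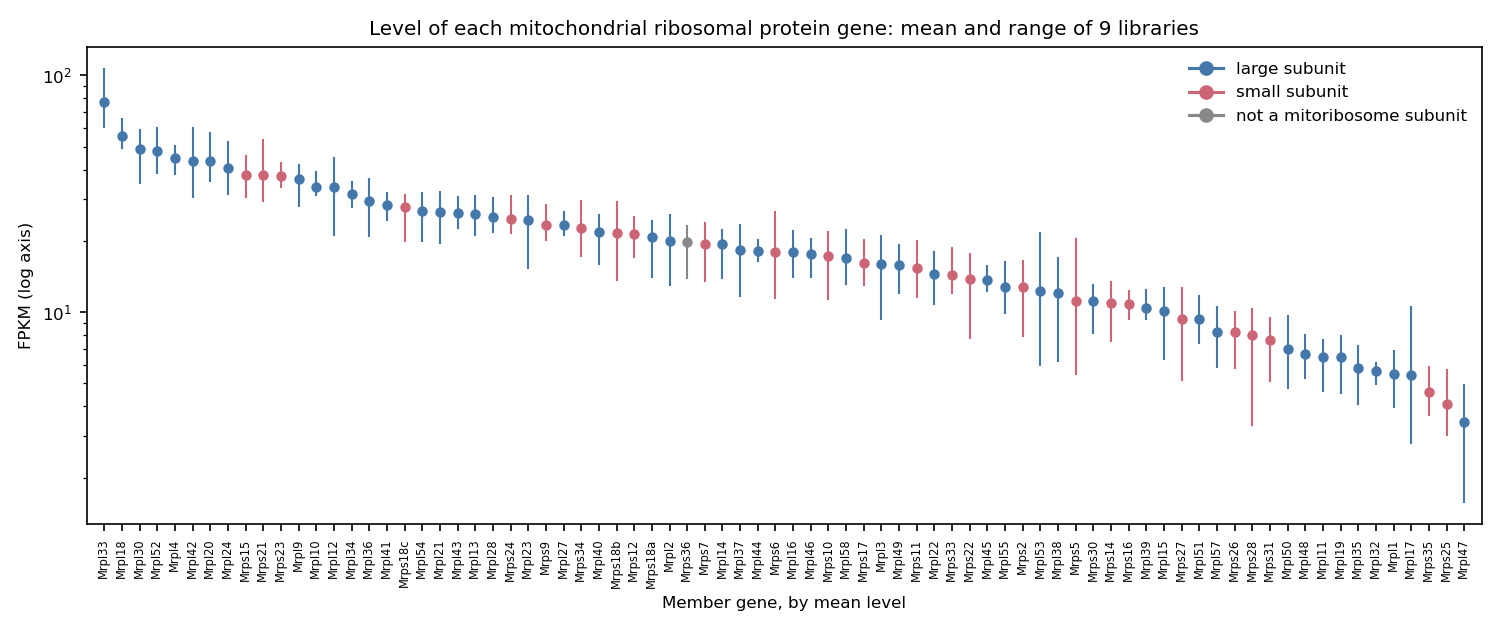
Mean FPKM (points, log axis) and range over 9 libraries (lines) of the 78 member genes, ordered by mean and coloured by ribosomal subunit. The order runs from Mrpl33 at 76.9 FPKM to Mrpl47 at 3.45 FPKM. Its top holds large subunit genes alone, down to Mrps15, the highest small subunit gene, at 37.8 FPKM.

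The sum over members was 1732, 1676 and 1439 FPKM in the 3 Th17-1 libraries, 1387, 1859 and 1424 FPKM in Th1-1, and 1638, 1650 and 1764 FPKM in Th17-17. Replicate 2 of Th1-1 stood above its group and replicate 3 of Th17-1 stood below its group, and the groups overlapped. With these libraries set aside, Th17-1 and Th17-17 still overlapped, while the remaining Th1-1 libraries lay below both. The libraries set aside were picked by their sums, and this separation was not tested. Members made up 0.349% to 0.458% of a library's summed FPKM. The ratio of the large subunit sum to the small subunit sum stayed between 2.40 and 2.59 in all 9 libraries, so the subunits moved largely together. It was 2.53 to 2.59 in Th17-1, above the 2.40 to 2.51 of Th17-17 without overlap, and 2.43 to 2.56 in Th1-1. This difference in ratio was not tested. In bulk RNA, fewer cells expressing a gene and less RNA per cell cannot be told apart.

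The departure of these libraries was shared by most members. Replicate 2 was the highest Th1-1 library for 66 of the 78 members, or 84.6%, and for 45.6% of all genes tested. Replicate 3 was the lowest Th17-1 library for 65 members, or 83.3%, and for 46.8% of all genes tested. Replicate 3 of Th1-1, which like replicate 3 of Th17-1 had high Cd8a, was at 1424 FPKM and close to replicate 1, while replicate 3 of Th17-17 had the highest sum of its group. The labels do not say why Cd8a was high there. With the level of Cd8a and Cd8b1 as a covariate, 3 members were higher and 19 lower in Th1-1 against Th17-17 (limma, median -0.23), or 24.4% lower against 30.0% of all genes. The median SD within a group, in log2(FPKM + 1) units, was 0.15 for members and 0.14 for all genes in Th17-1, 0.26 for members and 0.18 for all genes in Th1-1, and 0.11 for members and 0.13 for all genes in Th17-17.

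**Figure D2:**
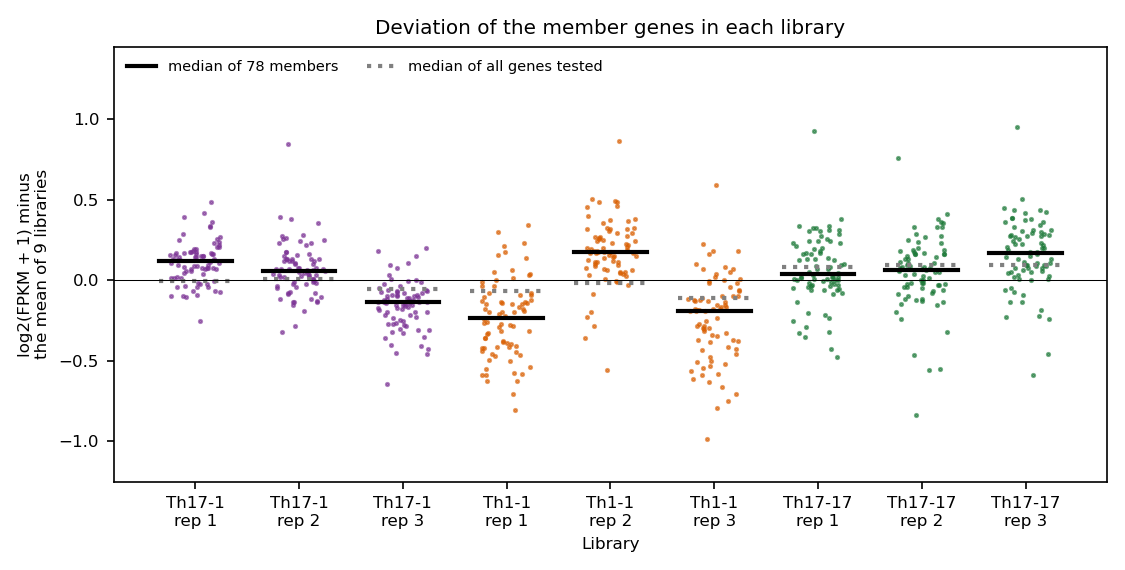
Each point is a member gene in 1 library, plotted as log2(FPKM + 1) minus the gene's mean over 9 libraries; bars mark the member median and dotted lines the median of all genes tested. In Th1-1 the member median of replicate 2 is 0.18 while those of replicates 1 and 3 are -0.23 and -0.19, and in Th17-1 the median of replicate 3 is -0.14.

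Members lie on 17 chromosomes in the GENCODE annotation of GRCm38, with at most 11 on any of them. Of the 78, 18 (23.1%) had, within 1000 bases upstream of their start, the start of a protein-coding gene that runs the opposite way. The share was 6.79% among the 21865 protein-coding genes of the table, which were not limited to genes past the filter on low values. Such head-to-head pairs share a short stretch of DNA between their starts. Pairs that overlap at their starts, such as Mrps11 and Mrpl46, were not counted. Mrps12, whose product is the counterpart of a bacterial protein of the decoding centre, starts 172 bases from Sars2, the gene of the mitochondrial seryl-tRNA synthetase. Mrps5, which showed the widest range between groups, starts 128 bases from Zfp661.

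Promoter windows from 250 bases before to 50 bases after the RefSeq start (GRCm38.p6) were at hand for 69 members, which had 75 windows. GABP, a factor of the ETS family, and NRF1 are known as activators of nuclear genes for mitochondrial proteins, and YY1 is known to bind many housekeeping promoters. The letters CCGGAAG, a GABP and ETS motif, stood on either strand in 34.7% of member windows, in 19.4% of the windows of all genes tested and in 8.86% of all windows in the RefSeq table. AAGATGGC, the YY1 motif, stood in 16.0% of member windows, 4.82% of windows of genes tested and 2.75% of all windows. GCATGC, the core of the NRF1 motif, stood in 12% of member windows, 10.3% of windows of genes tested and 7.93% of all windows. GGGCGG, the GC box, was in 52.0% of member windows, 63.5% of windows of genes tested and 35.7% of all windows. None of these motifs contains another, and a match describes letters and not binding.

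The windows of 5 members run 5′ to 3′ on the strand of the gene, with the letters of these NRF1, ETS, YY1 and GC box motifs, or their reverse complements, in capitals. Mrps5 and Mrps6 are shown because they moved in opposite directions in all 3 comparisons, Mrpl58 because it holds the ETS letters more than once, Mrps12 because its window covers the stretch between it and Sars2, and Mrpl32 because it holds the NRF1 core more than once.
Mrps5 (chr2:127587176-127587475, plus strand): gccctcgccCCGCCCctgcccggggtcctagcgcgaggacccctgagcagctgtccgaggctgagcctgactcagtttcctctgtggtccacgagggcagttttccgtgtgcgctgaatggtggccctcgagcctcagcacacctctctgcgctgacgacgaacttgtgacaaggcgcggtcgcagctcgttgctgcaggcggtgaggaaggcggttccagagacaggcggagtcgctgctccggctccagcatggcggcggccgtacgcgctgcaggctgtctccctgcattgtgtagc
Mrps6 (chr16:92058086-92058385, plus strand): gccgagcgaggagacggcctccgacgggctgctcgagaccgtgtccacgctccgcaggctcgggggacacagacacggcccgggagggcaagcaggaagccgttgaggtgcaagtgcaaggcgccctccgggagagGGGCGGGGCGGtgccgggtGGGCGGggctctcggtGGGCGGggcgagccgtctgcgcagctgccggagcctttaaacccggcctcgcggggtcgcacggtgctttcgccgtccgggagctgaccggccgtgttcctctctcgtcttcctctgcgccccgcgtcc
Mrpl58 (chr11:115403502-115403801, plus strand): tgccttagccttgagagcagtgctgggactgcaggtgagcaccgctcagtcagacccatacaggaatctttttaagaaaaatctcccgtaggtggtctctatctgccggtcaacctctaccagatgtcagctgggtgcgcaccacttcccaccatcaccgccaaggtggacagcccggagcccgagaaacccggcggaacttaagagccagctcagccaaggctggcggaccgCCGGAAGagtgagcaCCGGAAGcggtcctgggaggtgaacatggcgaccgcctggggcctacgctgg
Mrps12 (chr7:28741772-28742071, minus strand): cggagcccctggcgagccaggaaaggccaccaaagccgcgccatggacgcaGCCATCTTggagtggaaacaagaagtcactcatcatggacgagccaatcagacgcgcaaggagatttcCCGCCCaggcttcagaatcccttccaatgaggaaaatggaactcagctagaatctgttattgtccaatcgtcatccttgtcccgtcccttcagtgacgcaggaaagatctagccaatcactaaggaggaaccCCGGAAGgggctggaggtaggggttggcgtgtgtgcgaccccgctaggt
Mrpl32 (chr13:14612988-14613287, minus strand): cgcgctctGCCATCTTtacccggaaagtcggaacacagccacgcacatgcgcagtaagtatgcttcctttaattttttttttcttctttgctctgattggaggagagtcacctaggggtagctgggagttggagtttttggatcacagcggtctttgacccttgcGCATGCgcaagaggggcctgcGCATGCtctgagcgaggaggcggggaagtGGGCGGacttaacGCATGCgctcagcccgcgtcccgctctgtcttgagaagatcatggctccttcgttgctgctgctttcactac
The Mrps5 window held a GC box and none of the other capitals' motifs, and the Mrps6 window held GC boxes alone. The Mrps12 window held the ETS letters at the start of Mrps12 and the YY1 letters near the far end, past the annotated start of Sars2. The ETS letters stood in the windows of 3 of the 14 members with a window that were lower in Th1-1 than in Th17-17, of 2 of 3 that were higher, and of 21 of 52 that did not pass the test.

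The comparison of Th17-1 with Th1-1 asked how cells that reached the Th1 condition from a Th17 start differ from cells that had been there from the beginning. Mrps5 was higher and Mrps6 lower in Th17-1, and the other 76 members did not pass the test (limma on log2(FPKM + 1), Benjamini-Hochberg adjusted p below 0.05). Of all genes tested, 5.67% were higher and 4.81% lower in Th17-1, or 10.5% in either direction. At an unadjusted p below 0.05 there were 6 higher and 2 lower members. The member differences ran from -0.47 to 0.61 log2 units, with a median of 0.09 where all genes tested had a median of 0.05, and 57 members had a positive difference.

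The 3 comparisons share libraries, so their values are set side by side and are not independent of each other. Comparing Th17-1 with Th17-17 asked what changed when Th17 cells were moved to the Th1 condition. Mrpl53 and Mrps6 were higher in Th17-1, where 6.43% of all genes tested were higher. Mrps5, Mrps35 and Mrpl58 were lower, where 9.49% of all genes were lower (15.9% in either direction). The other 73 members did not pass, and 2 higher and 7 lower members had an unadjusted p below 0.05. The median member difference was -0.08 log2 units, against -0.12 for all genes tested.

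Th1-1 against Th17-17 set the groups that kept their conditions beside each other, and it held the most member differences. Of the 78, 3 were higher in Th1-1 (Mrpl53, Mrps6 and Mrpl33), where 14.0% of all genes tested were higher, and 17 were lower, where 28.9% of all genes were lower (42.9% in either direction). The other 58 did not pass, and 5 higher and 21 lower members had an unadjusted p below 0.05. The share of members that were lower, 21.8%, was below that of all genes, but without replicate 2 of Th1-1 it was 44.9% against 35.7% of all genes, with medians of -0.32 for members and -0.19 for all genes. The median member difference was -0.17 log2 units, the same as the median of -0.17 over all genes tested. The members at or beyond 0.5 log2 units were 20.5% of the 78, against 32% of all genes tested.

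Over the 3 comparisons, 20 members passed in at least 1, 58 in none, and Mrps5 and Mrps6 in all 3. After rescaling each library by its median ratio to the others, which brought the median of all genes tested to -0.01 log2 units in Th1-1 against Th17-17 and to -0.02 in Th17-1 against Th17-17, the member medians became -0.01 and 0.02 in the same order, so the sign of the member median for Th17-1 against Th17-17 turned. The counts then were 6 higher and 6 lower members in Th1-1 against Th17-17 (7.69% each, against 19.5% and 16.6% of all genes). In Th17-1 against Th17-17 they were 2 higher and 1 lower (8.09% and 4.76% of all genes). In Th17-1 against Th1-1 they were 1 higher and 2 lower (4.78% and 5.83% of all genes). The counts that involve Th1-1 depended on its replicate 2: without it, 15 members (19.2%, against 10.2% of all genes) were higher and 1 lower in Th17-1 than in Th1-1, and 3 were higher and 35 lower in Th1-1 relative to Th17-17. In Th1-1 against Th17-17, 4 were higher and 7 lower without replicate 1 of Th1-1, 3 were higher and 7 lower without its replicate 3, and without replicate 1, 2 or 3 of Th17-17 the lower count was 7, 7 or 9. In these 5 fits 8.97% to 11.5% of members and 18.6% to 24.7% of all genes were lower. With the third replicate of every group left out, which removed the libraries with the highest Cd8a, 2 members were higher and 4 lower in Th1-1 relative to Th17-17, or 5.13% lower against 18.7% of all genes.

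**Figure D3:**
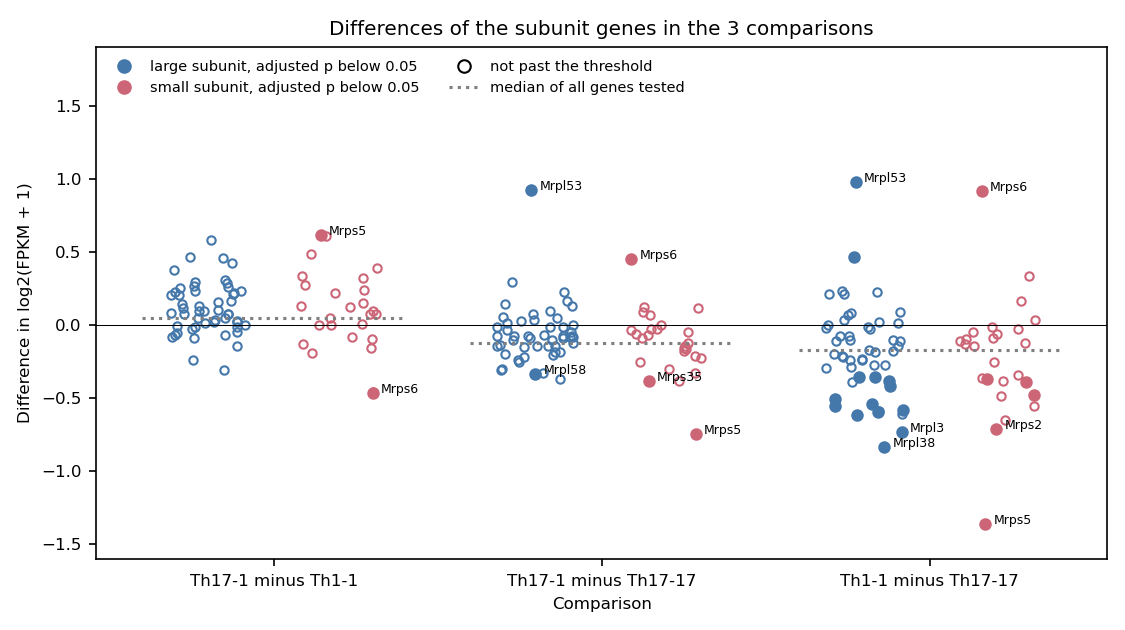
Difference in log2(FPKM + 1) of each subunit gene in the 3 comparisons, by subunit; filled points have a limma adjusted p below 0.05 and dotted lines are medians of all genes tested. Mrps5 and Mrps6 lie on opposite sides of 0 in each comparison, and Mrpl53 stands apart where Th17-17 is the group compared against.

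Among small subunit genes, Mrps5 changed most. It encodes the counterpart of bacterial S5, a protein near the mRNA entry of the small subunit that bears on decoding accuracy, and lies on chromosome 2 from 127587222 to 127606829. Its level was 10.3, 10.1 and 9.22 FPKM in Th17-1, 6.28, 6.63 and 5.47 FPKM in Th1-1, and 20.3, 18.0 and 14.0 FPKM in Th17-17. The 3 groups did not overlap, with Th17-17 highest and Th1-1 lowest. On the log2(FPKM + 1) scale, which understates changes of low genes, Th17-1 was 1.53-fold higher than Th1-1 (difference 0.61, SE 0.14, limma adjusted p 0.0231) and 1.68-fold lower than Th17-17 (difference -0.75, adjusted p 0.00696). Th1-1 was 2.57-fold lower than Th17-17 (difference -1.36, limma adjusted p 0.000172). The difference from Th1-1 did not pass without replicate 1 of Th17-1 (adjusted p 0.0923, limma), its replicate 2 (0.0941), replicate 1 of Th1-1 (0.0568) or its replicate 3 (0.0956), whereas the other comparisons of Mrps5 passed without any single library.

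Mrps6 went the other way. It encodes the counterpart of bacterial S6, a small subunit protein, and lies on chromosome 16 from 92058270 to 92112227. Its level was 16.5, 15.7 and 19.8 FPKM in Th17-1, 21.5, 24.7 and 26.6 FPKM in Th1-1, and 13.4, 11.4 and 12.3 FPKM in Th17-17. Again no group overlapped another, and here Th1-1 was highest and Th17-17 lowest. Th17-1 was 1.38-fold lower than Th1-1 (difference -0.47, SE 0.12, limma adjusted p 0.0380) and 1.36-fold higher than Th17-17 (difference 0.45, adjusted p 0.0339). Th1-1 was 1.89-fold higher than Th17-17 (difference 0.91, limma adjusted p 0.00058), and this passed without any single library. The difference from Th1-1 did not pass without replicate 1 or 2 of Th17-1, replicate 3 of Th1-1, or any replicate of Th17-17 (limma adjusted p 0.0504 to 0.156), and that from Th17-17 did not pass without any 1 of the 6 libraries compared (0.0514 to 0.132). Of the exon bases of Mrps6, 19.9% are shared with Gm49711 and 10.4% with Slc5a3 on the same strand. Slc5a3 itself was at 1.13 to 1.26 FPKM in Th17-1, 1.34 to 1.37 FPKM in Th1-1 and 1.03 to 1.09 FPKM in Th17-17.

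Mrps5 and Mrps6 were among 5 members whose 3 groups were fully separated. Mrpl38, Mrpl58 and Mrps9 shared the order of Mrps5, from Th17-17 down to Th1-1, which 5.13% of members and 6.47% of all genes tested showed. Mrps6 alone showed the reverse, a pattern of 2.95% of all genes tested. The mean of Th17-1 lay between the other means in 51 members, or 65.4%, against 60.2% of all genes tested. For the members as a set, the intermediate place of Th17-1 was thus close to that of genes at large.

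**Figure D4:**
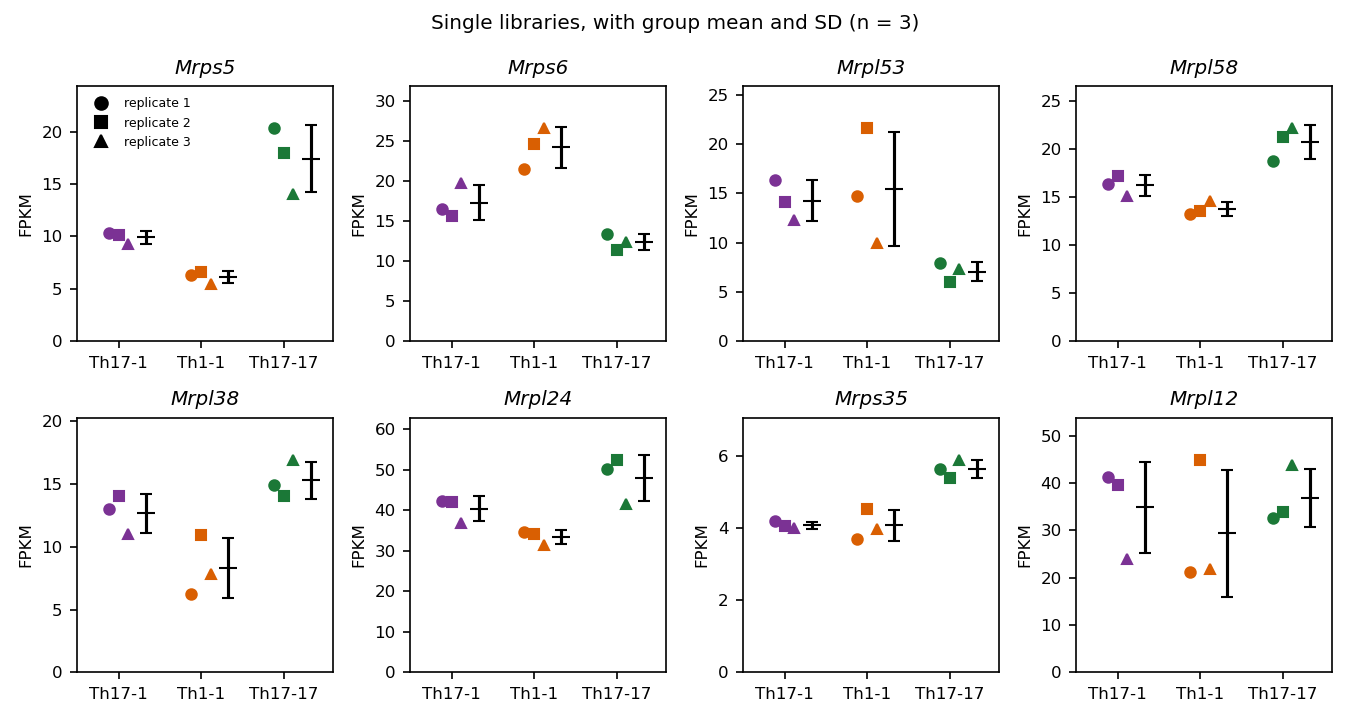
FPKM in each library of 8 members, with the group mean and SD (n = 3). In Mrps5, Mrps6, Mrpl38 and Mrpl58 the Th17-1 libraries lie between those of Th1-1 and Th17-17 without overlap, whereas in Mrpl12 the groups overlap and the libraries that stand apart are replicate 3 of Th17-1 and replicate 2 of Th1-1.

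The other small subunit genes that passed were all lower in Th1-1 than in Th17-17. Mrps2, the counterpart of bacterial S2, was at 14.9, 13.5 and 9.78 FPKM in Th17-1, 7.91, 13.0 and 7.92 FPKM in Th1-1, and 15.7, 15.8 and 16.4 FPKM in Th17-17. Th1-1 was 1.64-fold lower than Th17-17 without overlap (difference -0.71, limma adjusted p 0.0176). Mrps35, a mitochondria-specific protein, was at 4.18, 4.04 and 4.0 FPKM in Th17-1, 3.70, 4.52 and 3.98 FPKM in Th1-1, and 5.62, 5.38 and 5.88 FPKM in Th17-17. Both groups that ended in the Th1 condition lay together below Th17-17, with differences of -0.38 for Th17-1 (limma adjusted p 0.0289) and -0.39 for Th1-1 (adjusted p 0.0116). The difference of Th17-1 did not pass without any 1 of the 6 libraries compared (limma adjusted p 0.0647 to 0.0983).

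Mrps9, the counterpart of bacterial S9, varied little within groups. It was at 22.8, 22.8 and 22.6 FPKM in Th17-1, 21, 20.1 and 20.2 FPKM in Th1-1, and 28.3, 27.4 and 24.7 FPKM in Th17-17. The groups did not overlap, and Th1-1 was 1.29-fold lower than Th17-17 (difference -0.37, limma adjusted p 0.00641). Mrps31 was 1.39-fold lower in Th1-1 than in Th17-17, at 6.49 ± 1.33 FPKM against 9.33 ± 0.115 FPKM (SD, n = 3 each; limma adjusted p 0.0327). In all, 1 of 26 small subunit genes was higher and 5 (19.2%, against 28.9% of all genes) were lower in Th1-1 relative to Th17-17, with a median difference of -0.13.

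2 further small subunit genes had a group apart from the others without passing the test. Th1-1 lay above both other groups in 2.56% of members, against 7.99% of all genes tested. Th17-1 lay below both in 1.28% of members, against 3.34% of all genes. Mrps21, the counterpart of bacterial S21, was at 37.6, 29.6 and 30.7 FPKM in Th17-1, 39.0, 53.2 and 43.7 FPKM in Th1-1, and 33.8, 37.6 and 34.9 FPKM in Th17-17. Every Th1-1 library lay above the rest, but the difference of Th17-1 from Th1-1 was -0.46 with a limma adjusted p of 0.0590. Mrps23 was lowest in Th17-1, at 33.7 to 36.6 FPKM against 36.7 to 41.9 FPKM in Th1-1 and 36.8 to 42.6 FPKM in Th17-17, with limma adjusted p-values of 0.396 and 0.252. Mrps12 was level, at 21.1 ± 3.64 FPKM in Th17-1, 20.9 ± 2.15 FPKM in Th1-1 and 22.4 ± 2.49 FPKM in Th17-17 (SD, n = 3). Sars2, its head-to-head neighbour, was 1.43-fold lower in Th1-1 than in Th17-17 (limma adjusted p 0.0183), at 9.20 ± 1.58 FPKM against 13.5 ± 1.36 FPKM, but not after median-ratio scaling or without replicate 1 or 3 of Th1-1 or replicate 3 of Th17-17.

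Mammals have 3 genes related to bacterial S18, and these did not pass in any comparison. Mrps18a, of the large subunit, averaged 22.2 ± 1.42 FPKM in Th17-1, 18.1 ± 4.73 FPKM in Th1-1 and 21.7 ± 2.11 FPKM in Th17-17. Mrps18b averaged 22.8 ± 4.43, 18.9 ± 8.94 and 23.3 ± 3.88 FPKM in the same order of groups, and Mrps18c 30.0 ± 1.08, 25.5 ± 4.75 and 27.7 ± 2.28 FPKM (SD, n = 3). In Mrps18b the spread of Th1-1 came from replicate 2 at 29.3 FPKM, beside 13.7 and 13.9 FPKM.

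**Figure D5:**
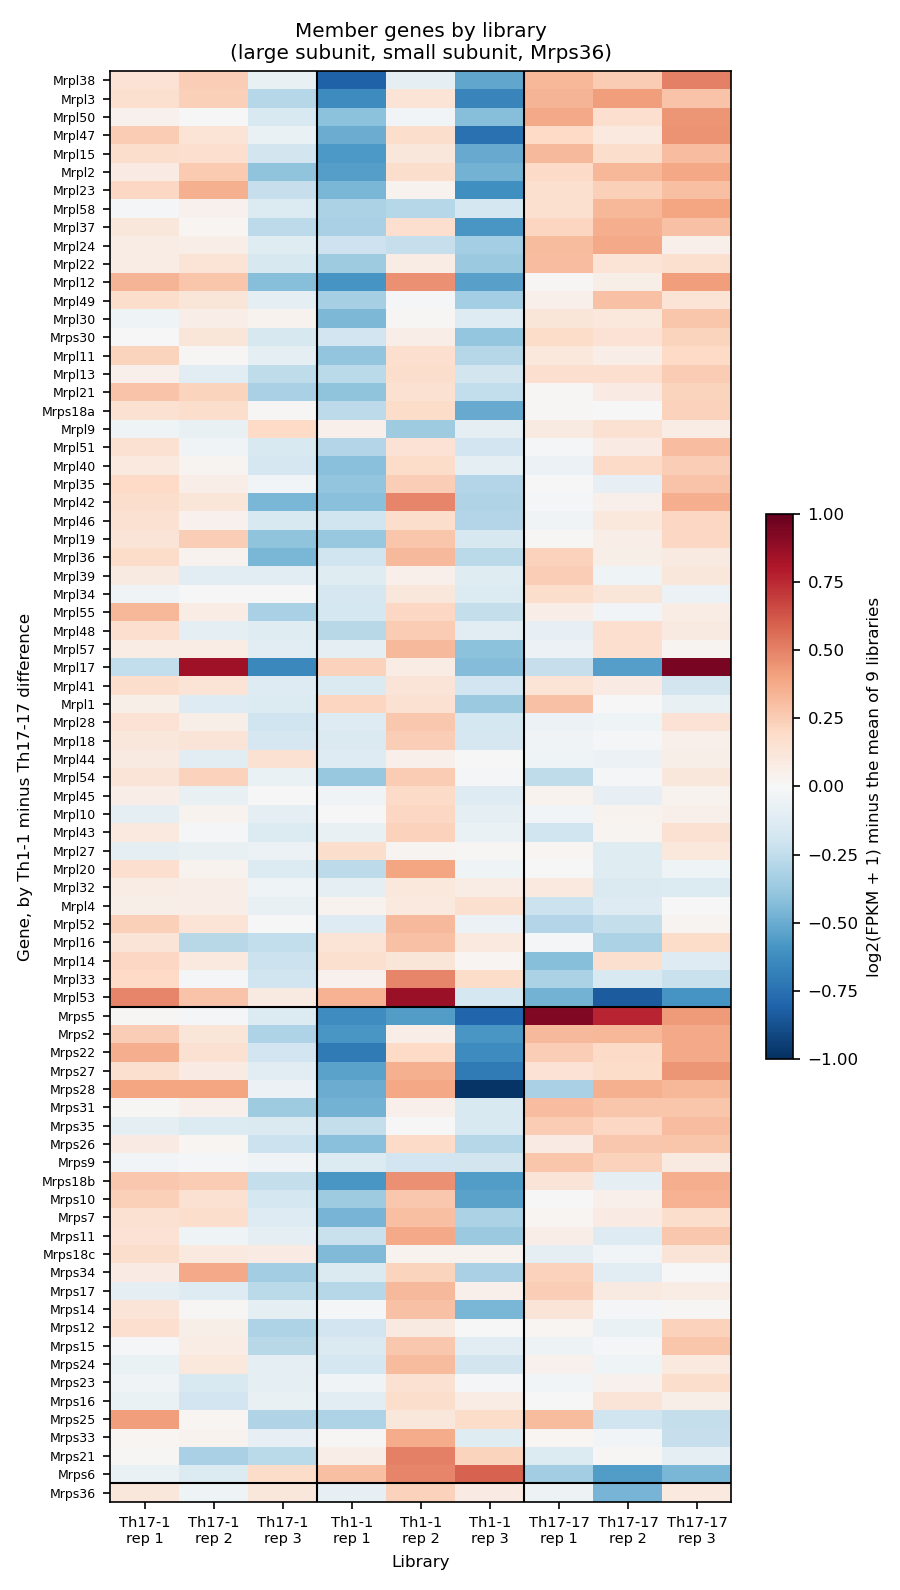
Deviation of log2(FPKM + 1) from the mean of 9 libraries (colour) for the 78 members (down the page, by subunit and by the Th1-1 minus Th17-17 difference) in each library. The columns of Th1-1 replicate 2 and Th17-1 replicate 3 run red and blue through most genes, and Mrps5 and Mrps6 mark the ends of the small subunit block.

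Of 51 large subunit genes, Th1-1 exceeded Th17-17 in 2 and fell below it in 12 that passed (23.5%, against 28.9% of all genes), with a median difference of -0.18 where all genes had -0.17. Mrpl53, which encodes a mitochondria-specific protein, differed most among those higher. It lies on chromosome 6 from 83109040 to 83109939 and was at 16.4, 14.1 and 12.3 FPKM in Th17-1, 14.8, 21.6 and 10.0 FPKM in Th1-1, and 7.95, 5.96 and 7.27 FPKM in Th17-17. Both groups that ended in the Th1 condition lay above Th17-17 and overlapped each other. The difference from Th17-17 was 0.92 for Th17-1 (1.89-fold, limma adjusted p 0.0306) and 0.98 for Th1-1 (1.97-fold, adjusted p 0.0103). That of Th17-1 did not pass without its replicate 1 or 2 or without any Th17-17 replicate (limma adjusted p 0.0587 to 0.121).

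Mrpl53 is uncertain as a separate gene in these data. Of its exon bases, 88.0% are shared on the same strand with Gm42688, a predicted gene with its own values, and the sources used here do not say how fragments from shared bases were assigned. Gm42688 was at 3.36, 3.83 and 3.66 FPKM in Th17-1, 2.45, 2.01 and 2.56 FPKM in Th1-1, and 5.30, 6.58 and 5.66 FPKM in Th17-17. It moved the opposite way to Mrpl53, with Th17-17 above both other groups (limma adjusted p 0.0118 against Th17-1 and 0.00031 against Th1-1).

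Mrpl33, the most abundant member, was at 86.9, 74.8 and 66.0 FPKM in Th17-1, 78, 106.6 and 86.0 FPKM in Th1-1, and 60.5, 68.1 and 64.9 FPKM in Th17-17. The Th1-1 libraries lay above those of Th17-17 (1.38-fold, difference 0.47, limma adjusted p 0.0224), and Th17-1 overlapped both. Without replicate 1 of Th17-17 the difference did not pass (limma adjusted p 0.0809).

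Mrpl58 encodes a peptidyl-tRNA hydrolase that rescues stalled mitochondrial ribosomes and is also built into the large subunit. It lies on chromosome 11 from 115403752 to 115412674 and was at 16.4, 17.2 and 15.1 FPKM in Th17-1, 13.2, 13.5 and 14.6 FPKM in Th1-1, and 18.8, 21.3 and 22.1 FPKM in Th17-17. The 3 groups followed each other without overlap, Th17-17 highest. Th1-1 was 1.47-fold lower than Th17-17 (difference -0.56, limma adjusted p 0.00228) and Th17-1 was 1.26-fold lower than Th17-17 (difference -0.33, adjusted p 0.0454). The difference of Th17-1 passed, of the fits without 1 library, only in that without replicate 2 of Th1-1 (limma adjusted p 0.0376, against 0.0589 to 0.149 in the others).

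Mrpl58 lies in the central protuberance, where the subunits meet, and so does Mrpl38. Mrpl38 was at 13.0, 14.0 and 11.0 FPKM in Th17-1, 6.21, 10.9 and 7.82 FPKM in Th1-1, and 14.9, 14.0 and 16.9 FPKM in Th17-17. The groups did not overlap, though the highest Th17-1 library and the lowest Th17-17 library both rounded to 14.0 FPKM. Th1-1 was 1.78-fold lower than Th17-17 (difference -0.83, limma adjusted p 0.00576), and Th17-1 differed from Th1-1 by 0.58 with an adjusted p of 0.0695. The other 7 proteins of this region did not pass, among them Mrpl18 at 56.5 ± 6.44, 54.9 ± 9.31 and 55.2 ± 1.73 FPKM in Th17-1, Th1-1 and Th17-17 (SD, n = 3).

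Proteins at the exit of the peptide tunnel, which faces the inner membrane, include Mrpl22, Mrpl23, Mrpl24 and Mrpl45. Of 6 genes of this region 3 were lower in Th1-1 than in Th17-17 and 0 higher, with a median of -0.46, and 0 passed in the other comparisons. Of all genes tested, 28.9% were lower in Th1-1, with a median of -0.17. Mrpl24 alone of the 3 passed after median-ratio or quantile scaling, without replicate 1 or 3 of Th1-1, or without any 1 Th17-17 library. Mrpl24 was at 42.2, 42.0 and 36.8 FPKM in Th17-1, 34.5, 34.0 and 31.5 FPKM in Th1-1, and 50.0, 52.3 and 41.5 FPKM in Th17-17. All Th1-1 libraries lay below the others, 1.42-fold lower than Th17-17 on average (difference -0.51, limma adjusted p 0.0057). On the opposite strand Rrnad1 shares 26.3% of the exon bases of Mrpl24 and was also lower in Th1-1, at 5.60 ± 0.471 FPKM against 8.92 ± 1.67 FPKM in Th17-17 (SD, n = 3 each; limma adjusted p 0.00838). The sources used here do not say whether strand was used in counting, so reads of the shared bases cannot be told apart.

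Mrpl23 was 1.5-fold lower in Th1-1 than in Th17-17, at 19.0 ± 4.93 FPKM against 28.4 ± 1.38 FPKM (limma adjusted p 0.0349), and Mrpl22 1.34-fold lower, at 12.3 ± 2.46 FPKM against 16.7 ± 1.15 FPKM (adjusted p 0.0383). Mrpl45, which is known to bind the ribosome to the inner membrane, was level at 13.6 ± 0.734 FPKM in Th17-1, 13.7 ± 1.70 FPKM in Th1-1 and 13.5 ± 0.649 FPKM in Th17-17 (SD, n = 3). Mrpl17, of the same region, had the widest standard error of all members, 0.45 log2 units. It was at 3.99, 9.68 and 2.80 FPKM in Th17-1, 5.97, 5.23 and 3.40 FPKM in Th1-1, and 4.05, 3.06 and 10.5 FPKM in Th17-17. A single library was far above the rest in each of Th17-1 and Th17-17. Mrpl47, the lowest member, was at 3.68 ± 0.524, 2.5 ± 1.21 and 4.16 ± 0.668 FPKM in Th17-1, Th1-1 and Th17-17, and its difference between Th1-1 and Th17-17 of -0.61 had a limma adjusted p of 0.0527.

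The stalk of the large subunit recruits translation factors and is built from Mrpl10, Mrpl11 and Mrpl12, and 0 of the 3 passed in any comparison. Mrpl12 was at 41.3, 39.5 and 23.9 FPKM in Th17-1, 21.3, 44.9 and 21.9 FPKM in Th1-1, and 32.7, 33.9 and 43.8 FPKM in Th17-17. Its groups overlapped fully, and the libraries that departed were those that departed in the member sums. Its difference between Th1-1 and Th17-17 was -0.39 with an SE of 0.30 (limma adjusted p 0.313). Mrpl10 was even, at 32.4 ± 1.84 FPKM in Th17-1, 34.7 ± 3.86 FPKM in Th1-1 and 34.2 ± 1.04 FPKM in Th17-17.

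The remaining large subunit genes that passed were lower in Th1-1 than in Th17-17. Mrpl3, a bacterial-type protein near the peptidyl transferase centre, was at 17.4, 18.3 and 12.5 FPKM in Th17-1, 9.62, 17.1 and 9.36 FPKM in Th1-1, and 19.8, 20.9 and 19.0 FPKM in Th17-17. The gap between Th1-1 and Th17-17 was narrow at replicate 2 of Th1-1 and wide elsewhere (difference -0.73, limma adjusted p 0.0247). Mrpl50, a mitochondria-specific protein, was at 7.04, 6.77 and 6.02 FPKM in Th17-1, 4.86, 6.64 and 4.8 FPKM in Th1-1, and 9.15, 7.75 and 9.59 FPKM in Th17-17. Every Th17-17 library was above all others (difference of Th1-1 from Th17-17 -0.62, limma adjusted p 0.00648). Mrpl15 (-0.59), Mrpl37 (-0.54), Mrpl49 (-0.39), Mrpl30 (-0.36) and Mrps30 (-0.35) followed, with limma adjusted p-values between 0.0284 and 0.0487.

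Of the 20 members that passed in Th1-1 against Th17-17, 9 also passed without any single library. These were Mrps5, Mrps6, Mrps9, Mrps35, Mrpl24, Mrpl38, Mrpl50, Mrpl53 and Mrpl58. Members were also classed by name as bacterial-type or mitochondria-specific. This put Mrps18a and Mrps18b, although related to a bacterial protein, in the mitochondria-specific class, so the classes only approximate origin. In the large subunit 6 of 30 bacterial-type and 6 of 21 mitochondria-specific genes were lower in Th1-1, with medians of -0.18 and -0.20. In the small subunit the counts were 3 of 16 bacterial-type, with a median of -0.12, and 2 of 10 mitochondria-specific, with a median of -0.37. The difference between the classes was not tested, and 28.9% of all genes were lower. Members without overlap between groups numbered 6 higher and 4 lower in Th17-1 than in Th1-1, where 16.3% and 12.9% of all genes tested did so. They numbered 2 and 18 in Th17-1 against Th17-17 (13.2% and 30.0% of all genes), and 5 and 19 in Th1-1 against Th17-17 (16.4% and 36.4%). Th17-17 lay above both other groups in 13 members, or 16.7%, against 22.7% of all genes tested.

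Mrps36, which is no ribosomal subunit, averaged 20.4 ± 1.32 FPKM in Th17-1, 20.8 ± 2.35 FPKM in Th1-1 and 17.9 ± 3.64 FPKM in Th17-17 (SD, n = 3) and did not pass in any comparison. Mitoribosomal proteins whose symbols fall outside the Mrpl and Mrps names gave 0 of 5 genes in either direction in all 3 comparisons. Of all genes, 10.5% passed in Th17-1 against Th1-1, 15.9% in Th17-1 against Th17-17 and 42.9% in Th1-1 against Th17-17. In the last comparison the median was -0.17 both for the 5 genes and for all genes. Dap3, a GTP-binding small subunit protein, averaged 18.9 ± 4.27 FPKM in Th17-1, 15.9 ± 1.95 FPKM in Th1-1 and 15.5 ± 3.67 FPKM in Th17-17. Ptcd3 averaged 17.8 ± 3.46, 15.9 ± 4.95 and 21.9 ± 1.38 FPKM in the same groups.

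Genes that serve the mitochondrial ribosome were counted in the same way, and their counts were not tested against those of the members or of all genes, of which 14.0% were higher and 28.9% lower in Th1-1 against Th17-17, with a median of -0.17. Among 24 genes for assembly of the ribosome and maturation of its RNA, 1 was higher and 11 (45.8%) lower in Th1-1 relative to Th17-17, with a median of -0.39. After median-ratio scaling 4 of the 11 passed (16.6% of all genes were then lower), and without replicate 3 of Th1-1 also 4, where 19.6% of all genes were lower. Without any 1 of the other 8 libraries 4 to 14 genes of the list were lower. Mettl17, an assembly factor of the small subunit, was at 11.3 ± 0.112 FPKM in Th17-1, 7.70 ± 0.592 FPKM in Th1-1 and 15.2 ± 2.23 FPKM in Th17-17 (SD, n = 3), and it passed in all 3 comparisons (limma differences of 0.50, -0.39 and -0.89, in the order used above). The last held in all 21 alternatives and the first in 15, whereas that of Th17-1 from Th17-17 held in 8 and was lost with the replicate block, with both rescalings and in 7 of the 9 fits without 1 library. Mterf3 (-0.82), Nsun4 (-0.77), which methylates ribosomal RNA, and Mrm1 (-0.61) followed. Mpv17l2 went the other way, at 19.9 ± 1.65 FPKM in Th17-1 and 28.9 ± 2.34 FPKM in Th1-1 (limma adjusted p 0.0118), against 22.8 ± 1.04 FPKM in Th17-17.

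Of 12 translation factors, 0 were higher and 6 lower in Th1-1 relative to Th17-17, with a median of -0.36. Guf1 alone of the 6 passed after median-ratio scaling and without replicate 3 of Th1-1, and 1 to 6 were lower without any other single library. Guf1, the mitochondrial form of elongation factor 4, was at 5.63 ± 0.234 FPKM in Th1-1 and 10.8 ± 1.08 FPKM in Th17-17 (difference -0.83, limma adjusted p 0.000335). Tufm, the elongation factor that brings aminoacyl-tRNA to the ribosome, was level at 39.1 ± 0.706 FPKM in Th17-1, 42.7 ± 3.60 FPKM in Th1-1 and 40.4 ± 5.71 FPKM in Th17-17. In Th17-1, Mtif2 (-0.54) and Guf1 (-0.52) were lower than in Th17-17, Mtif2 not without replicate 1 or 3 of Th17-1 or replicate 1 of Th17-17.

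The synthetases that charge mitochondrial tRNAs gave 0 higher and 8 lower of 17 in Th1-1 against Th17-17, with a median of -0.55, and 7 to 12 were lower without any 1 library. Aars2 led at 2.97 ± 1.08 FPKM in Th1-1 against 7.44 ± 1.27 FPKM in Th17-17 (difference -1.11, limma adjusted p 0.00261). Tars2 was the synthetase that differed in Th17-1 against Th1-1, at 35 ± 1.72 FPKM against 18.8 ± 1.35 FPKM (1.82-fold higher, limma adjusted p 0.00127). Its Th17-17 level of 35.5 ± 2.79 FPKM was close to that of Th17-1. In Th17-1 against Th17-17, 0 synthetases were higher and 4 (23.5%, against 9.49% of all genes) lower, with a median of -0.29. These were Aars2, Cars2, Hars2 and Iars2, which passed in 5, 1, 2 and 3 of the 9 fits without 1 library.

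Genes that copy and transcribe mitochondrial DNA gave 0 higher and 9 lower of 12 in Th1-1 against Th17-17, with a median of -0.64, and 3 higher of 12 in Th17-1 against Th1-1 (Polg, Polg2 and Ssbp1), where 5.67% of all genes were higher. All 3 of these calls were lost without replicate 1 or 2 of Th17-1 or replicate 3 of Th1-1, while without replicate 2 of Th1-1 6 genes were higher. The 9 lower became 6 after median-ratio scaling and 7 to 10 without any 1 library. Polg, the mitochondrial DNA polymerase, averaged 14.2 ± 1.78 FPKM in Th17-1, 8.19 ± 0.850 FPKM in Th1-1 and 17.8 ± 3.40 FPKM in Th17-17, and Th17-1 was 1.65-fold higher than Th1-1 (limma adjusted p 0.0190). Polrmt, the mitochondrial RNA polymerase, was 1.70-fold lower in Th1-1 than in Th17-17 (limma adjusted p 0.00443), and Tfam, which packages mitochondrial DNA, 1.33-fold lower (adjusted p 0.0128). Of 13 protein-coding transcripts of mitochondrial DNA, the templates of the mitochondrial ribosome, 0 passed in any comparison. Their medians were -0.02, -0.15 and -0.12 log2 units for Th17-1 against Th1-1, Th17-1 against Th17-17 and Th1-1 against Th17-17. In the same order, 10.5%, 15.9% and 42.9% of all genes passed, with medians of 0.05, -0.12 and -0.17. Negative differences numbered 9, 13 and 12 of the 13, so their direction against Th17-17 was that of most genes. Of the 7 proliferation markers, 1 (14.3%) was higher and 2 (28.6%) lower in Th1-1 against Th17-17, where 14.0% and 28.9% of all genes were. Their differences were negative in 6 and positive in 1, with a median of -0.37 log2 units where all genes tested had -0.17. Mki67 was lower, at 93.1 ± 3.40 FPKM in Th1-1 against 136 ± 7.74 FPKM in Th17-17 (limma adjusted p 0.00249), and so was Top2a, at 218 ± 23.1 FPKM in Th1-1 against 320 ± 19.5 FPKM in Th17-17 (adjusted p 0.0114). Pcna, the sliding clamp of DNA replication, was higher, at 418 ± 25.6 FPKM in Th1-1 against 251 ± 16.6 FPKM in Th17-17 (SD, n = 3 each; limma adjusted p 0.000502). All 3 calls held in the 21 alternatives, and the part of proliferation in the member differences was not tested.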

How the data were processed

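The deposited table holds FPKM for 22017 gene symbols, a unit that corrects for transcript length and library size. The mm10 build, HISAT2 and DESeq2 are named, with neither version nor role, per the submitters' processing notes. The sources used here do not state the annotation, the counter or the strand setting. FPKM hold no counts, so depth is unknown, and abundant transcripts in a library lower the values of the others.

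The 10538 genes that reached 1 FPKM in at least 3 libraries were tested as log2(FPKM + 1) with limma (3.58.1, R 4.3.3) and a mean-variance trend, in a fit of all 9 libraries with 6 residual degrees of freedom. Two-sided p-values were adjusted by the Benjamini-Hochberg method over all genes tested in a comparison, with a threshold of 0.05. The fit was tested on simulated data. Groups came from sample titles. Gene positions and overlaps came from GENCODE M21 (GRCm38, the build of mm10) and promoter windows from RefSeq (GRCm38.p6). Python 3.11.15, pandas 2.3.3 and matplotlib 3.10.9 were used for tables and plots.

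Members and gene lists were chosen with earlier results of these data known. Named members were, per comparison, the 8 largest differences in each direction among those past the threshold, the 5 highest and 5 lowest mean levels, a fixed set with known roles or misleading symbols, and any with a group apart from both others. Up to 4 genes per direction of each pathway list were named, with fixed checks of labels and cell types. Sars2 and genes that share exon bases with a member were named for their position. As alternatives, pseudocounts of 0.1 and 5, other filters and scalings, a block on replicate number, fits of the 2 groups compared, array weights, Cd8a and Cd8b1 as a covariate, and the omission of libraries were tried.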

Additional observations from a re-analysis of the deposited data

How the results depend on the processing

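None of the members that passed changed sign in any of the 21 alternatives. Of the members that passed, 0 of 2 in Th17-1 against Th1-1, 1 of 5 in Th17-1 against Th17-17 (Mrps5) and 5 of 20 in Th1-1 against Th17-17 (Mrps5, Mrps6, Mrpl24, Mrpl53 and Mrpl58) passed in every alternative. With array weights, 39 members (50.0%) were higher and 2 lower in Th17-1 than in Th1-1 (median 0.26). Of all genes, 32.4% were then higher and 19.1% lower. Members numbered 6 and 9 in Th17-1 against Th17-17, beside 15.0% and 28.7% of all genes. In Th1-1 against Th17-17 they numbered 5 and 41 (52.6%), beside 21.2% and 46.3% of all genes. With no filter on low values, the counts were 0 lower in Th17-1 than in Th1-1, 1 higher in Th17-1 than in Th17-17 and 11 lower in Th1-1 than in Th17-17. The shares of all genes were 2.98%, 4.1% and 19.1% in the same order. Median-ratio scaling gave 2 lower in Th17-1 than in Th1-1 and 1 lower in Th17-1 than in Th17-17. It gave 6 higher and 6 lower in Th1-1 against Th17-17 (median -0.0078). The shares of all genes were 5.83%, 4.76%, 19.5% and 16.6% in the same order. Quantile normalization gave 2, 1 and 9 lower in the order of comparisons used here, against 5.78%, 5.93% and 20.1% of all genes. A fit of only the groups compared gave 0 lower in Th17-1 than in Th1-1, where 2.88% of all genes were lower. Without the third replicate of every group, 0 were lower in Th17-1 than in Th1-1, and 1 was higher and 1 lower in Th17-1 than in Th17-17. In Th1-1, 4 were lower than in Th17-17. The shares of all genes were 2.98%, 5.01%, 5.09% and 18.7% in the same order. Leaving out 1 library at a time gave 0 to 15 higher and 0 to 1 lower members in Th17-1 against Th1-1, 0 to 2 and 1 to 5 in Th17-1 against Th17-17, and 2 to 4 and 7 to 35 in Th1-1 against Th17-17. The higher and lower shares of all genes were 1.86% to 10.2% and 1.14% to 7.58% in Th17-1 against Th1-1. They were 3.63% to 8.49% and 2.9% to 13.9% in Th17-1 against Th17-17, and 10.1% to 15.9% and 18.6% to 35.7% in Th1-1 against Th17-17. The member medians then ran from 0.02 to 0.23, from -0.16 to -0.01 and from -0.32 to -0.10. The cause of these changes was not tested. Deviations from the group mean correlated at -0.178 to 0.659 between same-numbered libraries of different groups, and at -0.646 to 0.459 between differently numbered ones. These overlapping ranges do not decide whether the replicate numbers pair the samples, and Cd8a was high in replicate 3 of every group. The main fit used no pairing. A fit with the replicate number as a block gave 1 higher and 1 lower, 2 and 2, and 3 and 18 members in the 3 comparisons. The shares of all genes were 6.02% and 5.89%, 7.07% and 8.88%, and 14.1% and 28.2%. Depth is unknown, so what it limits cannot be stated, and 3 libraries a group limit the precision.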
